A study of Mus musculus with 7 samples.

Results

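Otx2, Pou3f1, Zic2, Zic5, Sox3, Sox4 and Sox11 are transcription factors of the formative and primed states of pluripotency. They were chosen by name with earlier results of these data known, so a count of them beside the share of all genes is a description. Each symbol was matched to 1 Ensembl gene, so that 7 of the 29267 genes in the tables are described here. Their levels were read in all 7 libraries of a study of the chemically defined 5C medium in mouse reprogramming. The cells were mouse embryonic fibroblasts of the OG2 line, which carries a GFP reporter under the Oct4 promoter and its distal enhancer. Retroviruses brought in Oct4, Sox2, Klf4 and c-Myc. Cells grown in serum-containing mES medium or in 5C medium were sorted by GFP on day 15, at passage 0. This gave mES-Oct4GFP+ with mES-Oct4GFP- cells, and 5C-Oct4GFP+ with 5C-Oct4GFP- cells. Sorted 5C-Oct4GFP+ cells were cultured in naive medium, which has LIF and inhibitors of MEK and GSK3, or in primed medium. The study reports that they lost GFP in primed medium, so a lack of GFP does not by itself show a lack of pluripotency. The labels give 20 passages for both cultures. A legend of the study likewise gives some days in these media and then 20 further passages for the cells sequenced. Another legend gives only the days for cells of these names in the same RNA-seq, so the time is not fully certain. R1 ESCs-primed are cells of the mouse ESC line R1 brought to the primed state, also at passage 20.

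There was 1 library per group and no replicate, so no difference below has been set against the spread between cultures. The intervals are exact 95% intervals of the read counts and cover counting error only. Expected counts summed to between 6108252 and 11496615 per library. The model has its own limits. All OG2 groups had received the 4 retroviral factors, reads of a viral transcript cannot be told from those of the gene, and primed R1 ESCs were induced on feeder fibroblasts and then kept on serum-coated plates without mention of feeders, which is not stated for the converted cells. Markers of fibroblasts summed to 8.57 to 14.5 TPM (10 genes) in the 2 sorted Oct4GFP+ libraries and in 5C-Oct4GFP+ (naive) cells. They summed to 611 TPM in mES-Oct4GFP- cells, 272 TPM in 5C-Oct4GFP- cells, 79.2 TPM in 5C-Oct4GFP+ (primed) cells and 229 TPM in R1 ESCs-primed. Fap and Twist2 were listed at 0 in mES-Oct4GFP+ and 5C-Oct4GFP+ (naive) cells, and no fibroblast marker was at 0 in the other libraries. Of 10 naive markers, 9 were 2-fold higher in Oct4GFP+ than in Oct4GFP- cells in each medium, such as Zfp42 (REX1) with 337 against 1.31 TPM in mES medium. The exception was Klf4, also a retroviral factor here, with 1613 and 1512 TPM in the Oct4GFP- libraries from mES and 5C medium, against 139 and 522 TPM with Oct4GFP. All 10 were 2-fold lower in 5C-Oct4GFP+ (primed) than in 5C-Oct4GFP+ (naive) cells.

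As background, mouse pluripotent cells pass from a naive state, that of the blastocyst epiblast, through a formative state to a primed state, that of the epiblast after implantation. OTX2 and the POU protein OCT6, encoded by Pou3f1, are known to take over enhancers as cells leave the naive state, and the zinc finger protein ZIC2 acts at enhancers there too. SOX3 belongs with SOX2 to the SoxB1 group, which keeps epiblast and neural progenitor identity, and SOX4 and SOX11 are SoxC proteins known from neural and mesenchymal progenitors.

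On GRCm38 (GENCODE M21), Otx2 (ENSMUSG00000021848) lies on the minus strand at chr14:48657677-48673819 and has 8 transcripts in the tables. Pou3f1 (ENSMUSG00000090125) is at chr4:124656807-124660655 on the plus strand. Zic5 (ENSMUSG00000041703) is at chr14:122456795-122465677 on the minus strand and Zic2 (ENSMUSG00000061524) at chr14:122475435-122479852 on the plus strand, so that this pair points away from each other with 9758 bases between the starts. Sox3 (ENSMUSG00000045179) is at chrX:60891366-60893430, Sox4 (ENSMUSG00000076431) at chr13:28948919-28953713 and Sox11 (ENSMUSG00000063632) at chr12:27334264-27342574, all on the minus strand. Pou3f1 and the 3 Sox genes each have 1 transcript of 1 exon. The reference table of promoters held 4 of the 7 genes (Otx2, Zic5, Sox4 and Sox11). The 250 bases before a start are printed for Otx2, the gene with the widest range below, and for the SoxC pair, whose highest levels were in different libraries. They are from RefSeq (GRCm38.p6), 5′ to 3′ on the minus strand, at chr14:48667645-48667894 for the outermost of 4 listed Otx2 starts, chr13:28953700-28953949 for Sox4 and chr12:27342719-27342968 for Sox11. Capitals mark a TATAAA in Otx2, and a CCAAT or its reverse complement ATTGG in the Sox genes.
Otx2: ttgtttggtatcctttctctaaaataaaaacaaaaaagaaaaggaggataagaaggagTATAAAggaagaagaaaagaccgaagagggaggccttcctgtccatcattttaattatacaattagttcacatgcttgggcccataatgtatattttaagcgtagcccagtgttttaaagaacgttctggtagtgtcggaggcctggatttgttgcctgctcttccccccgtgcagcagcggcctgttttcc
Sox4: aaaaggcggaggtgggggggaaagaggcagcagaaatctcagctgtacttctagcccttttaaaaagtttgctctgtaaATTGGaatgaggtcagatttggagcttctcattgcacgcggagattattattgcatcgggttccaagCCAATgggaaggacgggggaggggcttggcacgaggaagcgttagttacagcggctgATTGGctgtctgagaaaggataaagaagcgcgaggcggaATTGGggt
Sox11: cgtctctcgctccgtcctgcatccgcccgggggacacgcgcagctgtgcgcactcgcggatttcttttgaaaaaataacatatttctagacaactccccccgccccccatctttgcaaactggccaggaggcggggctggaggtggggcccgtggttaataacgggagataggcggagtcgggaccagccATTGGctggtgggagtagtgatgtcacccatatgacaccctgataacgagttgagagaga
The motifs TAATCC (bicoid-type homeodomain proteins such as OTX2), ATGCAAAT (POU proteins), AACAATG and AACAAAG (SOX proteins), CCAAT and TATAAA were searched on both strands. The Sox4 window held 4 matches of CCAAT and the Sox11 window 1, and no other motif was found in either. Of 32851 windows of this length, 33.8% held a CCAAT and 0.84% held 4 or more. The printed Otx2 window held 1 TATAAA, present in 12.4% of windows. Of the other 3 Otx2 windows, which reach into exons and are not printed, the one at chr14:48665110-48665359 held a TAATCC, the one at chr14:48667509-48667758 held a CCAAT, and the last held none of the motifs. The Zic5 window held none either. TAATCC was in 6.25% of all windows, ATGCAAAT in 1.6%, AACAATG in 3.29% and AACAAAG in 5.03%. These matches are a description of letters.

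Otx2, the homeodomain factor that marks the exit from the naive state, had by far the widest range of the 7. From mES medium, Oct4GFP+ cells had 0.41 TPM (3 reads) and Oct4GFP- cells 40.1 TPM (309 reads), and from 5C medium, Oct4GFP+ cells had 189 TPM (1926 reads) and Oct4GFP- cells 26.5 TPM (185 reads). It was 1.15 TPM in 5C-Oct4GFP+ (naive) cells (12 reads), 214 TPM in 5C-Oct4GFP+ (primed) cells (2331 reads) and 134 TPM in R1 ESCs-primed (927 reads). In all, 3 libraries were thus high, both Oct4GFP- libraries were intermediate, and mES-Oct4GFP+ and 5C-Oct4GFP+ (naive) cells were at about 1 TPM or less. In these bulk samples, fewer cells that express a gene and less RNA per cell cannot be told apart. The highest level was 523 times the lowest. In 5C-Oct4GFP+ (primed) cells Otx2 was above 95.7% of all detected genes, and in mES-Oct4GFP+ cells above 13.0%. Only the lowest pair of libraries could not be ordered by counting error, with 2.80 times more in 5C-Oct4GFP+ (naive) than in mES-Oct4GFP+ cells (0.757 to 15.5).

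Pou3f1, which encodes OCT6, was likewise low in the same 2 libraries. It was lower in Oct4GFP+ than in Oct4GFP- cells of mES medium, but on TPM as deposited alike in both fractions of 5C medium within counting error. Its level was 0.48 TPM (6 reads) with and 6.18 TPM without Oct4GFP in mES medium, and 32.1 TPM with and 30.2 TPM without it in 5C medium. After conversion it had 0.90 TPM in naive medium (16 reads) and 51.0 TPM in primed medium, and R1 ESCs-primed had 62.6 TPM. On this scale the 2 libraries from 5C medium differed by less than counting error, with a ratio of 1.06 (0.947 to 1.20) of 5C-Oct4GFP+ over 5C-Oct4GFP- cells. With the libraries rescaled by the median ratio of their genes, the difference on log2(TPM + 1) was 0.31 in place of 0.09. That shift was larger than the counting error, so the likeness depends on the scaling. The other pair that counting error could not order was again 5C-Oct4GFP+ (naive) and mES-Oct4GFP+ cells, at a ratio of 1.88 (0.697 to 5.85). The antisense transcript Gm2164, which overlaps Pou3f1, stayed at 0.72 TPM or less in all 7 libraries.

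Zic2 and Zic5, zinc finger factors of the epiblast and neural plate, were at 7.35 TPM or more in every library, whereas Otx2 and Pou3f1 went down to 0.41 and 0.48 TPM. In mES medium, Zic2 had 33.5 TPM in Oct4GFP+ and 24.99 TPM in Oct4GFP- cells, and in 5C medium 103 and 37.5 TPM. It had 24.1 TPM in 5C-Oct4GFP+ (naive) cells, 157 TPM in 5C-Oct4GFP+ (primed) cells and 163 TPM in R1 ESCs-primed. The upper 3 libraries stood above 100 TPM and the other 4 lay between 24.1 and 37.5 TPM. Zic5 had, in the same order of the sorted cells, 10.7, 7.35, 38.1 and 9.63 TPM, then 14.2 TPM in 5C-Oct4GFP+ (naive) cells, 48.5 TPM in 5C-Oct4GFP+ (primed) cells and 55.0 TPM in R1 ESCs-primed. The same 3 libraries were high. The span from lowest to highest was 6.78-fold for Zic2 and 7.49-fold for Zic5, the narrowest of the 7 genes.

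The region between the pair held a further transcript of like profile. 2610035F20Rik, annotated as a processed transcript, lies at chr14:122470284-122475199 on the minus strand, 236 bases from the start of Zic2. Of 13560 genes with at least 5 TPM in any library, it had the highest r with Zic2 on log2(TPM + 1) over the 7 libraries (r = 0.99), and its r with Zic5 was 0.96. It had 3.76 TPM in Oct4GFP+ and 1.69 TPM in Oct4GFP- cells from mES medium, 11.2 and 3.62 TPM in those from 5C medium, and then 2.43 TPM in naive medium, 20.2 TPM in primed medium and 19.6 TPM in R1 ESCs-primed. Its counts were low, from 8 to 143 reads. The points share the 7 libraries and the genes share a locus, and whether reads were counted by strand is not given in the sources used here.

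**Figure D1:**
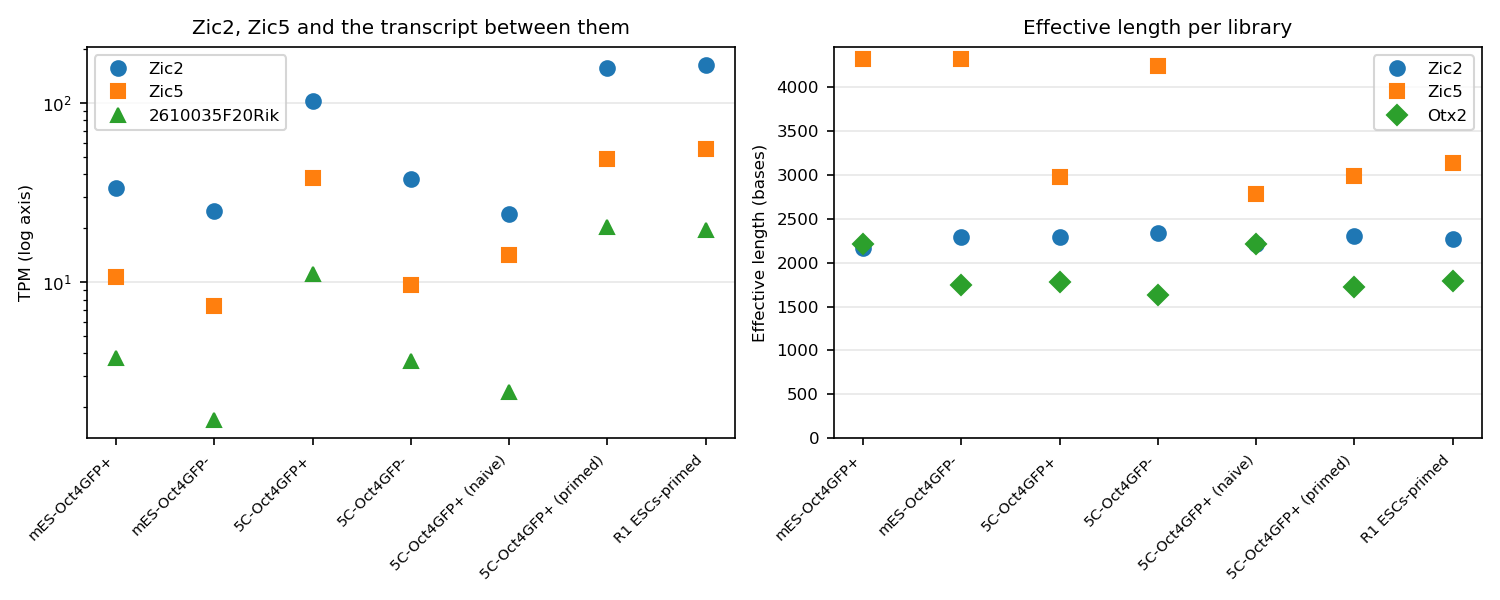
Left, levels of Zic2, Zic5 and 2610035F20Rik in TPM (log axis) in the 7 libraries; right, effective length in bases of Zic2, Zic5 and Otx2 in the same libraries. The 3 transcripts of the Zic locus were highest in 5C-Oct4GFP+ (primed) cells, R1 ESCs-primed and 5C-Oct4GFP+ cells, and the effective length of Zic5 fell into a group of 4233 bases or more and a group of 3132 bases or less.

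The effective length that RSEM gave a gene weighs its transcripts by their abundance, and for Zic5 it was not the same in all libraries. It was 4320 and 4316 bases in Oct4GFP+ and Oct4GFP- cells from mES medium, and 4233 bases in 5C-Oct4GFP- cells. It was 2975 bases in 5C-Oct4GFP+ cells, 2779 bases after naive and 2981 bases after primed culture, and 3132 bases in R1 ESCs-primed. A short processed transcript is annotated inside Zic5 (705 bases, against 4767 for the coding one), and a shorter effective length gives more TPM per read. On CPM, which was tried only once the data had been seen, the difference of Zic5 was 1.26 in place of 1.74 on the log2 scale between 5C-Oct4GFP+ and mES-Oct4GFP+ cells, and 1.53 in place of 1.88 between 5C-Oct4GFP+ and 5C-Oct4GFP- cells. In 7 of the 10 pairs it was slightly larger on CPM, as in primed against naive cells with 1.76 in place of 1.71. The effective length of Zic2 lay between 2164 and 2342 bases. For Otx2 it was 1636 to 1793 bases in the 5 libraries with 185 reads or more, and 2211 bases in mES-Oct4GFP+ and 5C-Oct4GFP+ (naive) cells, where it rests on 3 and 12 reads.

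Sox3, the X-linked SoxB1 factor, was highest after culture in primed medium. Among cells from mES medium it had 2.56 TPM (17 reads) in Oct4GFP+ and 9.90 TPM in Oct4GFP- cells, and among those from 5C medium 8.27 and 12.5 TPM. It had 1.28 TPM in 5C-Oct4GFP+ (naive) cells (12 reads), 32.0 TPM in 5C-Oct4GFP+ (primed) cells and 31.8 TPM in R1 ESCs-primed. The levels fell into 3 tiers, the primed pair, then both Oct4GFP- libraries with 5C-Oct4GFP+ cells, then mES-Oct4GFP+ and 5C-Oct4GFP+ (naive) cells. Within each tier every ratio of neighbours had an interval that held 1, though the outer pair of the middle tier, 5C-Oct4GFP- over 5C-Oct4GFP+ cells, had 1.51 (1.13 to 2.01). Sox3 was the lowest of the 7 genes in 5C-Oct4GFP+ cells on the TPM scale.

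The SoxC genes had higher levels in Oct4GFP- than in Oct4GFP+ cells of the same medium. Sox4 had 4.32 TPM with and 45.7 TPM without Oct4GFP in mES medium, and 11.7 TPM with and 44.4 TPM without it in 5C medium. It had 1.66 TPM in 5C-Oct4GFP+ (naive) cells, 53.9 TPM in 5C-Oct4GFP+ (primed) cells and 51.0 TPM in R1 ESCs-primed. Of the 7 libraries, 4 were within 44.4 to 53.9 TPM, and the 3 libraries with few fibroblast markers were at 11.7 TPM or less. Sox11, in the same order of the sorted cells, had 3.54, 18.4, 23.7 and 65.3 TPM, then 5.52 TPM in 5C-Oct4GFP+ (naive) cells, 31.2 TPM in 5C-Oct4GFP+ (primed) cells and 34.9 TPM in R1 ESCs-primed. It was the single gene of the 7 with its highest level in 5C-Oct4GFP- cells, 1.87 times that of R1 ESCs-primed (1.74 to 2.01). All 6 steps in the order of Sox11 were larger than counting error, against 4 of 6 for Sox4. An overlapping lincRNA on the other strand of Sox4, Gm26735, had 6.33 and 6.14 TPM in the Oct4GFP- libraries from mES and 5C medium and at most 1.45 TPM elsewhere, and if strand was not used its reads cannot be told from those of Sox4.

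**Figure D2:**
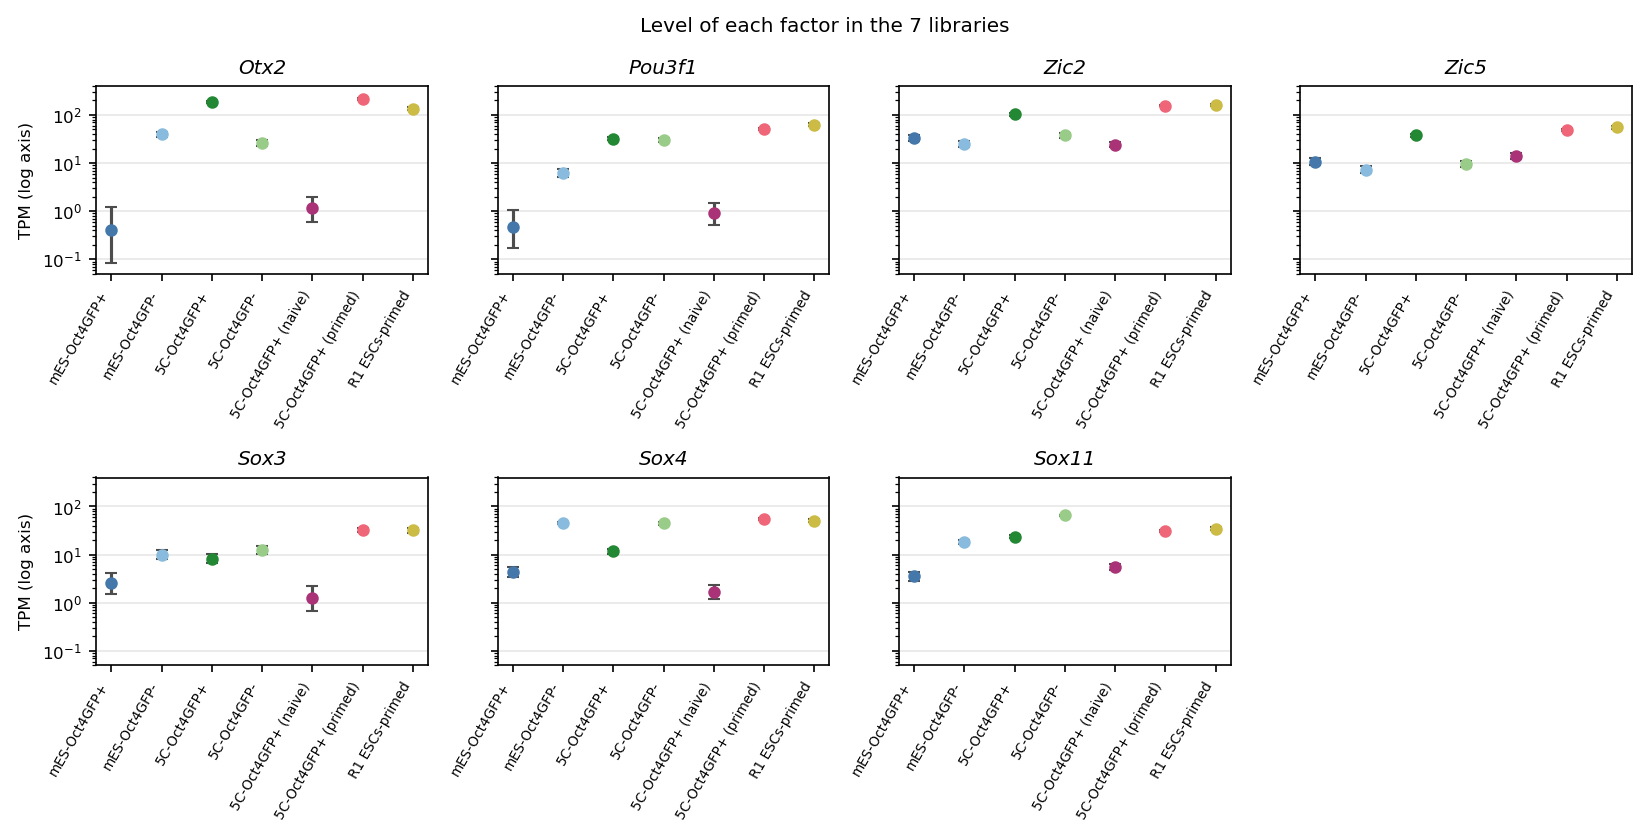
Level of each gene in TPM (log axis) in each of the 7 libraries, with exact 95% Poisson intervals of the read counts as bars. Otx2 and Pou3f1 dropped to about 1 TPM or less in mES-Oct4GFP+ and 5C-Oct4GFP+ (naive) cells, while Zic2 stayed at 24.1 TPM or more in all 7 libraries.

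Between Oct4GFP+ cells, the question was which of the 7 genes differed between the library from 5C medium and that from mES medium. On log2(TPM + 1), 5C-Oct4GFP+ cells exceeded mES-Oct4GFP+ cells by 2-fold or more for all 7 genes, where 13.7% of 15196 genes tested (at least 1 TPM in either library) were as much higher and 13.5% as much lower. Otx2 was 462 times higher (158 to 2242), a difference of 7.08, and 99.99% of genes tested had a smaller one. Pou3f1 was 66.9 times higher (30.6 to 183) and Sox11 6.68 times (5.43 to 8.31). For Zic5, Sox3, Zic2 and Sox4 the ratios were 3.56 (2.98 to 4.27), 3.23 (1.91 to 5.78), 3.07 (2.68 to 3.54) and 2.70 (2.07 to 3.56). The median difference of the 7 was 1.74, beside -0.06 over all genes tested. Of the 20 other formative and primed genes, 18 were tested, 9 were 2-fold higher and 3 lower, with a median of 0.68. Tcf15, a bHLH factor, was among those higher, with 85.0 against 2.65 TPM, and T, the mesoderm factor, was lower with 0.24 against 6.93 TPM.

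In Oct4GFP- cells, sorted for a lack of reporter signal, fewer of the genes differed between the media. 5C medium went with more Pou3f1 and Sox11 in these cells (2 of 7, beside 9.68% of 15859 genes tested), and none of the 7 was lower (beside 10.1%). Pou3f1 was 4.88 times higher (3.94 to 6.09) and Sox11 3.56 times (3.26 to 3.89). Otx2 went the other way and was 1.51 times lower in 5C-Oct4GFP- cells (1.26 to 1.83), which is under the 2-fold limit. Zic2 and Zic5 had ratios of 1.5 (1.28 to 1.77) and 1.31 (1.04 to 1.65), and for Sox3 and Sox4 the intervals held 1. Neural markers were higher in this pair as well. Of 10 neural genes, 8 were tested and 5 were 2-fold higher in 5C-Oct4GFP- cells, and they summed to 227 TPM against 91.1 TPM. Fabp7, a fatty acid binding protein of radial glia, had 48.7 against 7.13 TPM and Sox1 15.5 against 2.38 TPM, while Neurog2 was at 0 in 5C-Oct4GFP- cells. Fibroblast markers went down, with 7 of 9 tested 2-fold lower and 1 higher. Their part in the levels of Pou3f1 and Sox11 was not tested. Outside this pair the neural sum did not always go with these genes. It was 195 TPM in 5C-Oct4GFP+ (naive) cells, where Sox11 had 5.52 TPM and Pou3f1 0.90 TPM.

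The sort by Oct4GFP separated the genes differently in the 2 media. In mES medium, 5 of 7 genes were lower in Oct4GFP+ than in Oct4GFP- cells, beside 28.8% of 16294 genes tested, and none was higher, beside 17.9%. Otx2 was 97.7 times lower (33.1 to 477), Pou3f1 12.9 times (5.72 to 35.9), Sox4 10.6 times (8.27 to 13.7), Sox11 5.18 times (4.18 to 6.48) and Sox3 3.87 times (2.28 to 6.94). Zic2 and Zic5 were the exceptions and were slightly higher, 1.34 times (1.12 to 1.60) and 1.46 times (1.15 to 1.84). In 5C medium, Otx2, Zic5 and Zic2 were higher in Oct4GFP+ cells (3 of 7, beside 8.45% of 15675 genes tested) and Sox4 and Sox11 lower (2 of 7, beside 22.6%). Otx2 was 7.15 times higher (6.15 to 8.36), Zic5 3.96 times (3.34 to 4.70) and Zic2 2.74 times (2.44 to 3.08). Sox4 was 3.81 times lower (3.34 to 4.34) and Sox11 2.76 times (2.57 to 2.97). The median difference of all genes in this pair was -0.25, and -0.04 after median-ratio scaling, which left the 5 calls on the 7 genes as they were. All 9 fibroblast markers tested in mES medium and all 8 in 5C medium were also 2-fold lower in Oct4GFP+ cells. Of the neural markers, 4 of 7 tested were lower and 1 higher in mES medium, and 7 of 8 lower and 0 higher in 5C medium. The neural sum was nonetheless 103 TPM in mES-Oct4GFP+ and 91.1 TPM in mES-Oct4GFP- cells, with 59.4 and 227 TPM in 5C medium. The part of these markers in the lower Sox4 and Sox11 was not tested.

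**Figure D3:**
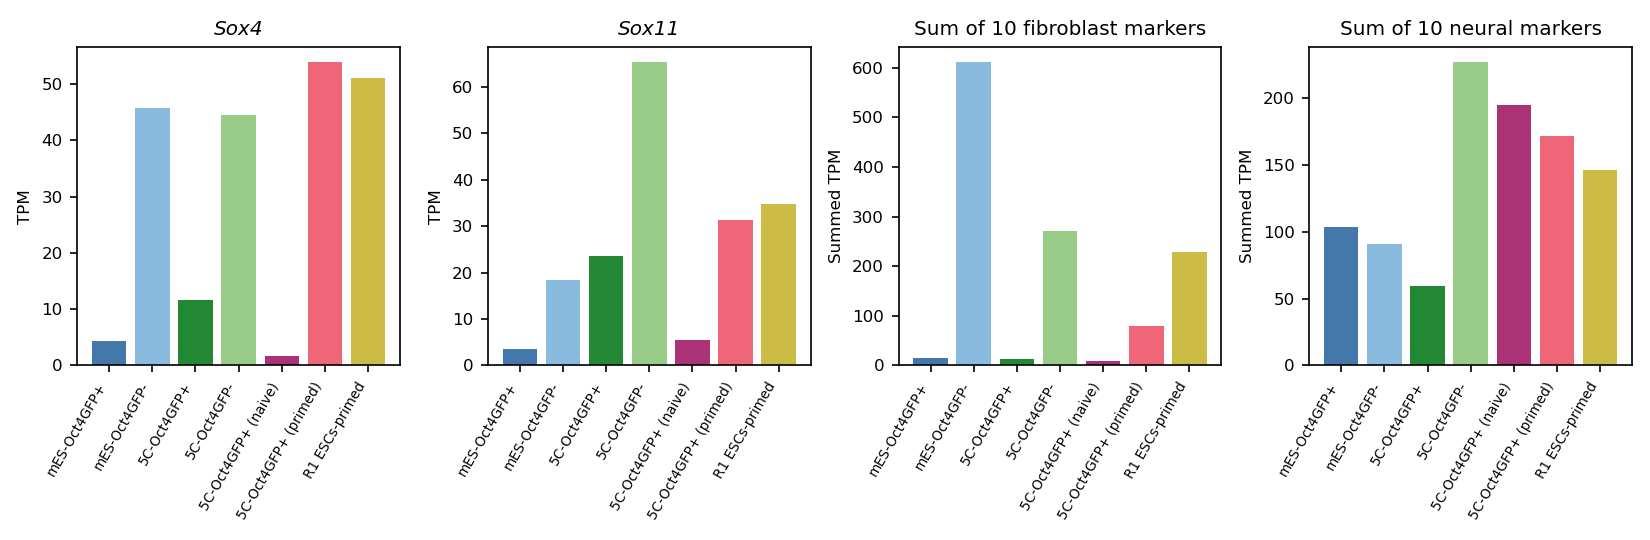
Levels of Sox4 and Sox11 in TPM beside the summed TPM of 10 fibroblast and 10 neural markers, as bars from 0 in each of the 7 libraries. Sox4 and the fibroblast sum were both low in the sorted Oct4GFP+ libraries and in 5C-Oct4GFP+ (naive) cells, but the fibroblast sum ran from 79.2 to 611 TPM over the 4 libraries in which Sox4 was within 44.4 to 53.9 TPM.

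After culture of 5C-Oct4GFP+ cells in naive medium, all 7 genes were lower. Each was at least 2-fold lower than in 5C-Oct4GFP+ cells, beside 17.5% of 14863 genes tested, and none was higher, beside 10%. Otx2 was 165 times lower (94.1 to 319), Pou3f1 35.7 times (21.8 to 62.8), Sox4 7.03 times (4.99 to 10.2) and Sox3 6.46 times (3.53 to 12.9). Sox11 and Zic2 were 4.29 times (3.70 to 4.98) and 4.26 times (3.72 to 4.90) lower, and Zic5 2.69 times (2.28 to 3.18). By the 2-fold limit, the result came near to mES-Oct4GFP+ cells. In that pair the intervals of Otx2, Pou3f1 and Sox3 held 1, but on 3 to 17 reads each, too few to show likeness. Those of Zic2, Zic5 and Sox11 left out 1. Their ratios of 5C-Oct4GFP+ (naive) over mES-Oct4GFP+ cells were 0.72 (0.601 to 0.863), 1.32 (1.06 to 1.65) and 1.56 (1.22 to 2.003). The 6 genes with 1 TPM in either library gave none 2-fold higher (beside 2.49% of 14477 genes) and 1 lower (beside 6.27%). That gene was Sox4, 2.60 times lower in 5C-Oct4GFP+ (naive) cells (1.72 to 3.996) and exactly at the limit on the log2(TPM + 1) scale, with a difference of -1. With median-ratio scaling Sox4 was no longer past it, and the higher share of all calls in this pair went from 28.4% to 42.5%.

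In primed medium, 2 of the 7 genes rose 2-fold above 5C-Oct4GFP+ cells, beside 13.7% of 15067 genes tested, and none fell as much, beside 16.1%. These were Sox4, 4.62 times higher (4.09 to 5.23), and Sox3, 3.87 times (3.08 to 4.90). Pou3f1, Zic2, Sox11, Zic5 and Otx2 were higher by 1.59 (1.45 to 1.75), 1.53 (1.43 to 1.63), 1.32 (1.22 to 1.43), 1.27 (1.15 to 1.41) and 1.13 times (1.07 to 1.20). R1 ESCs-primed, set against the same 5C-Oct4GFP+ library, also had Sox4 and Sox3 2-fold higher (2 of 7, beside 15.2% of 15306 genes) and none lower (beside 15.3%), with ratios of 4.37 (3.84 to 4.98) and 3.85 (3.02 to 4.94). Otx2 was lower there, at 0.709 of its level in 5C-Oct4GFP+ cells (0.655 to 0.768). In these 2 pairs, 8 of 9 and 9 of 10 fibroblast markers tested were 2-fold higher as well, and their part in Sox4 was not tested. Of the other formative and primed genes, 13 of 20 were higher and 1 lower in 5C-Oct4GFP+ (primed) than in 5C-Oct4GFP+ cells, with a median of 3.29, beside 0.60 for the 7 genes and 0.06 for all genes tested. Cer1, a secreted inhibitor of Nodal signalling, had 497 TPM in 5C-Oct4GFP+ (primed) cells and was listed at 0 in 5C-Oct4GFP+ cells.

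The 2 converted populations differed in all 7 genes. Each was 2-fold higher in primed than in naive medium, beside 22.2% of 15249 genes tested, and none was lower, beside 16.7%. The ratios were 187 for Otx2 (107 to 361), 56.6 for Pou3f1 (34.7 to 99.4), 32.5 for Sox4 (23.5 to 46.3), 25 for Sox3 (14.2 to 48.8), 6.51 for Zic2 (5.71 to 7.44), 5.66 for Sox11 (4.90 to 6.55) and 3.42 for Zic5 (2.92 to 4.03). Of 9 fibroblast markers tested, 8 were 2-fold higher too, and their part in these ratios was not tested. Otx2 and Zic5 are among the primed markers that the study chose on its own RNA-seq. All 7 genes were chosen with earlier results of these data known, so that the direction of none of them is independent evidence. Between the primed populations of different origin, R1 ESCs-primed and 5C-Oct4GFP+ (primed) cells, none of the 7 genes was 2-fold higher (beside 5.09% of 14600 genes) or lower (beside 2.30%). The intervals of Zic2, Sox3 and Sox4 held 1, at ratios of 1.04 (0.974 to 1.11), 0.995 (0.845 to 1.17) and 0.946 (0.872 to 1.03) of R1 ESCs-primed over 5C-Oct4GFP+ (primed) cells. Otx2 differed most and was 1.60 times lower in R1 ESCs-primed (1.48 to 1.72). Fibroblast markers were 2-fold higher there for 8 of 10 genes and neural markers for 4 of 7 tested, and their part in the lower Otx2 was not tested. The pairs of this and the preceding paragraphs share libraries, above all 5C-Oct4GFP+ cells, and are not independent of each other.

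**Figure D4:**
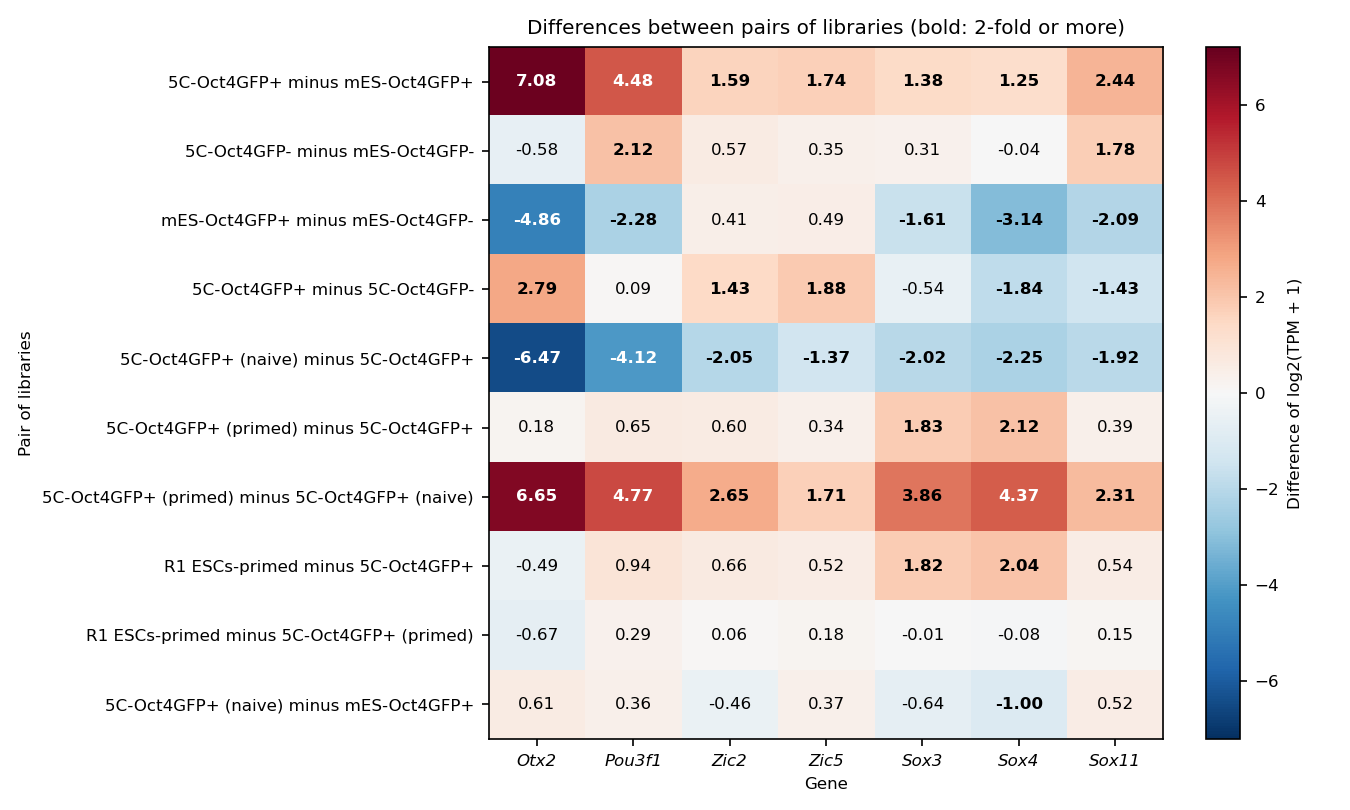
Difference of log2(TPM + 1) for each gene (columns) in each of the 10 pairs of libraries (rows), first library minus second, with 2-fold or more in bold. The 7 genes were all past 2-fold in 3 pairs and none in the pair of primed libraries; several pairs share a library.

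The level in 5C-Oct4GFP+ cells was also placed on the way from the naive to the primed library, from 0% at the naive to 100% at the primed level on log2(TPM + 1). Otx2 was at 97.3%, Pou3f1 at 86.4%, Sox11 at 83.3%, Zic5 at 80.0% and Zic2 at 77.2%. Sox3 and Sox4 were near the middle, at 52.5% and 51.6%. Over all 3389 genes that were 2-fold higher in the primed library the median was 47.8% (quartiles 17.6% and 78.9%). The other formative and primed genes, a list that also holds mesoderm and endoderm factors such as T, Foxa2 and Sox17, spread more widely. Sall2 (69.9%), Dnmt3b (58.1%), Etv4 (52.4%), Dnmt3a and Foxd3 lay above 50%, and 12 of 17 lay under 50%. Of these, 6 were under 0%, that is lower in 5C-Oct4GFP+ than in 5C-Oct4GFP+ (naive) cells, with Dkk1, a Wnt inhibitor, at -110%, T at -109% and Cdh2 (N-cadherin) at -34.3%. The others under 0%, Cer1, Mixl1 and Sox17, had 4 reads or fewer in both libraries, too few to tell them apart. Dnmt3a, a de novo DNA methyltransferase, was at 109% and Foxd3, a forkhead factor, at 129%, whereas Fgf5, the growth factor of the egg cylinder epiblast, was at 48.3% with 11.7 TPM before and 175 TPM after primed culture. The endoderm factors Foxa2 and Sox17 were close to the naive level, at 2.75% and -5.76%, on 1 and 3 reads in 5C-Oct4GFP+ cells.

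**Figure D5:**
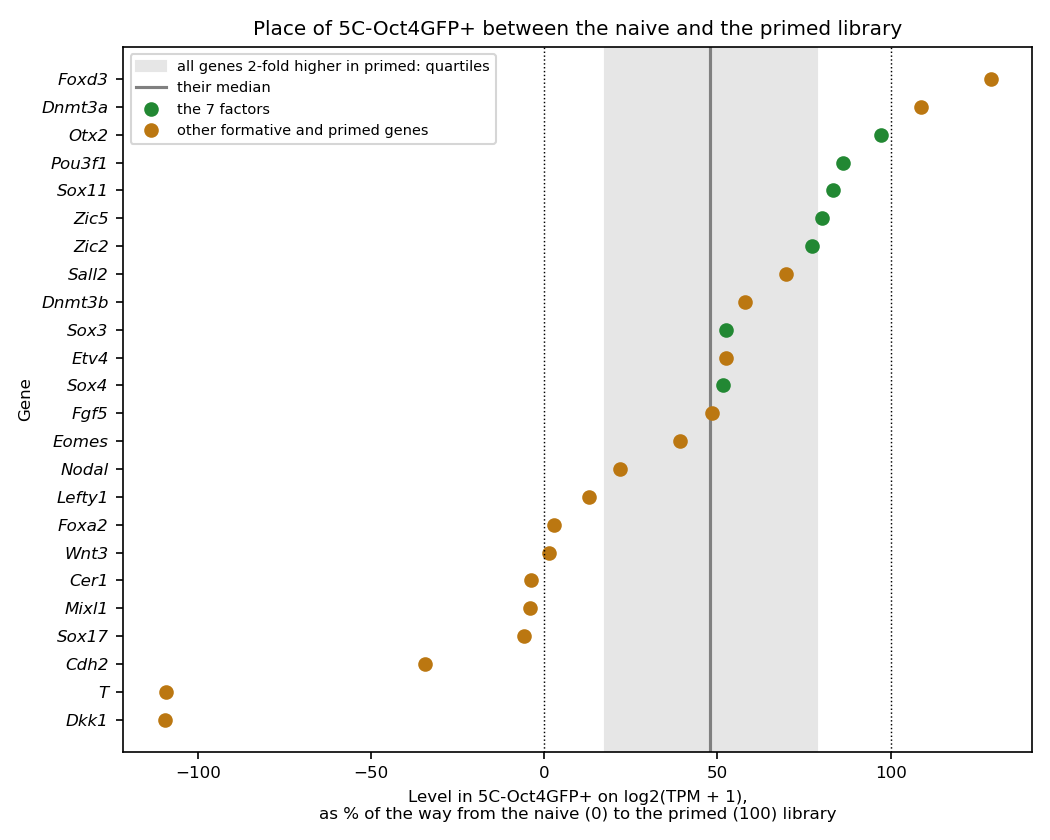
Level in 5C-Oct4GFP+ cells as a percentage of the way from the 5C-Oct4GFP+ (naive) to the 5C-Oct4GFP+ (primed) library on log2(TPM + 1), for the 7 genes and the 17 other formative and primed genes that were 2-fold higher in the primed library; the band and line are the quartiles and median of all 3389 such genes. The 7 genes lie between 51.6% and 97.3%, and Otx2 is nearest to the primed level of the 7.

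Close relatives of the genes did not all follow them. Sox2, the SoxB1 partner of Sox3 and also a retroviral factor here, was at 277 to 680 TPM in the sorted and naive cells and at 92.8 and 81.2 TPM in 5C-Oct4GFP+ (primed) cells and R1 ESCs-primed, where Sox3 was highest. Sox12, the remaining SoxC gene, ranged only from 22.4 to 50.2 TPM. Sox1, Zic1, Pou3f2 and Pou3f4 were highest in 5C-Oct4GFP- cells, at 15.5, 17.7, 8.58 and 4.35 TPM, as Sox11 was. Otx1, the paralog of Otx2, did not pass 2.27 TPM, and Crx, Pou3f3 and Zic4 did not pass 1.10 TPM in any library.

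As a description of likeness, the 21 pairs of the 7 genes had r from 0.27 to 0.95 on log2(TPM + 1) over the 7 libraries. Zic2 and Zic5 were the most alike (r = 0.95), followed by Otx2 with Pou3f1 (r = 0.93) and Sox3 with Sox4 (r = 0.93). Zic5 was least like Sox4 (r = 0.27) and Sox11 (r = 0.34). Outside the set, the genes nearest to Otx2 were Tmem154, Pla2g6 and Myrf (r = 0.98 to 0.99), and Myrf, a membrane-bound transcription factor, had 60.3 TPM in 5C-Oct4GFP+ cells and 0.37 TPM in mES-Oct4GFP+ cells. Those nearest to Pou3f1 were Kat5, Emd and Wdr55, to Zic2 2610035F20Rik, Tti1 and Map7d3, and to Zic5 Dnmt3b, Duxbl2 and Tmem209. Dnmt3b, which encodes a de novo DNA methyltransferase, had 366 TPM in 5C-Oct4GFP+ cells, 844 TPM after primed and 115 TPM after naive culture. Nono, Dapk1 and Zswim4 were nearest to Sox3, Ttc21b, Kif21a and Selenom to Sox4, and Gstm7, Lmtk3 and 2810001G20Rik to Sox11. With 7 points such values are common, and 381 genes had r of at least 0.95 with Sox4 and 28 with Otx2.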

How the data were processed

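RNA from 7 libraries (1 per group, TRIzol, Illumina TruSeq kit, MiSeq) was analysed. Per the labels, the authors used Bowtie and RSEM with mm10, and versions are not given in the sources used here. The deposited expected counts are the authors' RSEM estimates of reads per gene, not normalized. The deposited TPM is the authors' count over effective length, brought to 1 common total, and the deposited FPKM their fragments per length and mapped fragments, used as an alternative. The 7 genes and all lists were chosen with earlier results of these data known.

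Differences were taken on log2(TPM + 1), which understates changes of low genes. A gene was tested at 1 TPM or more in either library and called at 2-fold. Intervals of TPM ratios are exact (Clopper-Pearson, 95%), on expected counts rounded to integers. With 1 library per group no test or p-value was possible, and no spread between cultures could be estimated. Alternatives were a pseudocount of 0.1, a minimum of 5 TPM or none, FPKM, median-ratio scaling over 14630 genes, a 4-fold limit, Spearman's rho and, added after the data were seen, CPM from the counts.

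Symbols came from Ensembl identifiers (28756 of 29267 matched). Coordinates are GENCODE M21 on GRCm38. The lengths in the tables match M21 for the 4 genes with 1 transcript, but the longest mean length of Otx2, 2284 bases, exceeds its longest M21 transcript in the tables (2144 bases), so that the tables rest on another release. The genes named are the 7, the 3 of highest r with each, the family list apart from a gene that is not reported here, and from the other lists those of highest level or largest difference. The functions were tested on simulated data. Tools were scipy 1.17.1, numpy 2.4.6 and pandas 2.3.3 under Python 3.11.15, with plots from matplotlib 3.10.9.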

Additional observations from a re-analysis of the deposited data

Results flagged for a closer look

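Otx2 moved in opposite directions under the same contrast in a pair of settings. The difference of log2(TPM + 1) between 5C and mES medium was 7.08 in Oct4GFP+ cells and -0.58 in Oct4GFP- cells, 7.66 apart. The difference between Oct4GFP+ and Oct4GFP- cells was 2.79 in 5C medium and -4.86 in mES medium, which is the same 7.66 from the same 4 libraries. All 4 ratios had counting intervals that left out 1. With 1 library per group this difference between settings was not tested. The mES-Oct4GFP+ value rests on 3 reads. Signs also differed for Sox4 between the media (1.25 and -0.04) and for Pou3f1 between the sorts (0.09 and -2.28). There the counting interval of the smaller difference, on TPM as deposited, held no difference.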

How the results depend on the processing

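No paired analysis was possible because each group has 1 library. The labels do not say whether the Oct4GFP+ and Oct4GFP- cells of a medium came from the same culture. Nor do they say whether the converted cells came from the culture of the 5C-Oct4GFP+ library. Of the 70 differences of the 7 genes over the 10 pairs, all kept their sign with a pseudocount of 0.1, FPKM or median-ratio scaling, and 69 with CPM, an alternative chosen after seeing the data. The exception was Zic5 between 5C-Oct4GFP+ (naive) and mES-Oct4GFP+ cells, 0.37 in TPM and -0.15 in CPM, where its effective length differed (2779 and 4320 bases). At a 4-fold limit, 3 of the 7 genes (Otx2, Pou3f1 and Sox11) stayed higher in 5C than in mES medium among Oct4GFP+ cells and 1 (Pou3f1) among Oct4GFP- cells. Against 5C-Oct4GFP- cells, 1 stayed higher in 5C-Oct4GFP+ cells (Otx2) and 0 lower, and Sox4 was the 1 gene higher than in 5C-Oct4GFP+ cells in each of the primed populations. For 5C-Oct4GFP+ (naive) against mES-Oct4GFP+ cells, 0 genes were lower with a minimum of 5 TPM, FPKM, median-ratio scaling or 4-fold, and 1 (Otx2) was higher with a pseudocount of 0.1. Median-ratio scaling brought the median of all genes to between -0.04 and 0.01, from -0.15 in mES-Oct4GFP+ against mES-Oct4GFP- cells, -0.10 in naive and 0.06 in primed cells against 5C-Oct4GFP+ cells, and 0.14 between these converted cells. The nearest genes were kept with a minimum of 1 TPM, but with Spearman's rho none of the 3 stayed nearest for Otx2, Pou3f1, Zic2 and Zic5, 1 for Sox3, 1 for Sox4 and 2 for Sox11. Depth limits Otx2, Pou3f1 and Sox3 in mES-Oct4GFP+ and 5C-Oct4GFP+ (naive) cells, with 3 to 17 reads each.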

Other observations

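Neighbours of the genes on the chromosome were looked at after their values were seen. The gene flanking Sox4 on its left, the processed transcript 2610307P16Rik, 63299 bases away, had 0.17 TPM in mES-Oct4GFP+ and 0 in 5C-Oct4GFP+ (naive) cells and between 2.90 and 6.92 TPM in the other 5 libraries, with r = 0.93 to Sox4 over the 7 libraries. Exoc5, an exocyst subunit that flanks Otx2 on its right, stayed within 17.0 to 41.0 TPM (r = 0.52), and Tmem260, on its left, within 1.60 to 12.6 TPM (r = 0.29). Otx2os1, a lincRNA on the other strand that overlaps the M21 span of Otx2 but none of its transcripts in the tables, was listed at 0 in 5 libraries and at 0.22 TPM in 5C-Oct4GFP+ cells and, after primed culture, at 0.44 TPM. Antisense Gm14661, 83373 bases from Sox3, was present at 2.43 TPM in mES-Oct4GFP+ and 4.39 TPM in 5C-Oct4GFP+ (naive) cells and listed at 0 in the other 5 libraries.

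The 7 genes together made up 55.5 TPM in mES-Oct4GFP+ and 48.8 TPM in 5C-Oct4GFP+ (naive) cells, 153 and 226 TPM in Oct4GFP- cells from mES and 5C medium, and 406 TPM in 5C-Oct4GFP+ cells, 588 TPM in 5C-Oct4GFP+ (primed) cells and 533 TPM in R1 ESCs-primed. Otx2 was 46.7% of that sum in 5C-Oct4GFP+ cells and 0.739% in mES-Oct4GFP+ cells, where Zic2 was 60.3%. In 5C-Oct4GFP- cells Sox11 had the largest share, 28.9%, and in mES-Oct4GFP- cells Sox4, 30.0%.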
